A study of Drosophila melanogaster with 6 samples.

Results

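Rab GTPases are the largest family of small GTPases that direct vesicle traffic. The probe sets described here were taken by a symbol rule: each had exactly 1 annotated gene symbol, made of Rab or RabX followed by a number and optional letters. This gave 23 probe sets for 22 genes, out of 18769 probe sets and 11982 named genes on the array. Rab26 had 2 probe sets and every other gene had 1. Of these genes, Rab3, Rab26, Rab27 and RabX4 are known in Drosophila as neuron-enriched, and the other 18 are called general Rabs below. The gene table of the fly lists 33 family members. A further 4 of them, copies related to Rab9, shared 1 probe set that could not be assigned to a single gene, and Rab1, Rab4, Rab5, Rab6, Rab7, Rab8 and Rab11 were not analysed here.

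The samples were heads of male Drosophila melanogaster, frozen late in the afternoon of day 6 after eclosion. In the single-housed group each male had lived with 1 fly per vial, and in the group-housed group with 10 flies per vial. There were 3 arrays per group, described by the submitters as biological replicates, each from total RNA of 20 pooled heads. No strain, mutation or transgene is named in the labels used here, so no difference of genotype is given between the groups. The series sets the less aggressive group-housed males against the more aggressive single-housed males, and the question here is whether Rab transcripts in the head differed with that housing.

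A Rab protein works as a switch. Bound to GTP it sits on the membrane of a vesicle or organelle and recruits effectors that move, tether or fuse it, and bound to GDP it is drawn off the membrane. Guanine nucleotide exchange factors (GEFs) turn a Rab on, GTPase-activating proteins (GAPs) turn it off, and GDP dissociation inhibitor carries the inactive form through the cytosol. In neurons, Rab proteins act in synaptic vesicle release, in dense-core vesicle traffic and in the endosomes of axons and dendrites.

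The files gave 1 signal intensity per probe set and array, on a linear scale. The array medians ran from 24.2 to 31.6 as deposited, so values were compared as log2(intensity + 16) after quantile normalization, which gives all arrays the same distribution. Differences are single-housed minus group-housed on this log2 scale, from limma, with the standard error (SE) and n = 3 arrays per group. Brightness differs between probe sets for reasons of probe design, so no order of abundance is drawn between genes. The labelled tissue was checked on marker genes: all 5 photoreceptor markers and all 11 neuron markers measured passed the filter on low values, and 4 of 9 markers of testis and accessory gland did not. The testis and accessory gland markers that passed lay between 4.73 and 4.87, just over the filter at 4.69. Neuron markers lay between 5.79 and 11.85, and photoreceptor markers between 10.46 and 13.29. As brightness also depends on probe design, a low value does not by itself show absence. Among markers of other tissues of the fly 0 passed the adjusted threshold, while several lists lay wholly or mostly on one side of 0. All 5 gut markers lay above 0, with a median difference of 2.52 and 4 at an unadjusted limma p of 0.05, and their summed deposited intensity ran from 837 to 2995 in single-housed heads, against 41.3 to 839.5 in group-housed heads. All 6 markers of head fat body lay above 0, with a median of 0.66 and 4 at that p, and sums of 31830 to 35633 in single-housed heads, against 18808 to 24297 in group-housed heads. Of 5 hemocyte markers 4 lay above 0 (median 0.27, 2 at that p), with sums of 993 to 1275 in single-housed heads, against 876 to 984 in group-housed heads. Such deposited sums are not scaled between arrays, and with the deposited scaling the median difference over all probe sets tested was 0.10. All 6 glia markers lay above 0 with a median of 0.08, all 5 photoreceptor markers below 0 with a median of -0.05 and all 4 muscle markers below 0 with a median of -0.04, and 0 of these reached that p. The photoreceptor marker Arr2 had the same normalized value, 13.30, on all arrays but single-housed replicate 3, at 13.23, so its sign rests on 1 array. Deposited sums of the photoreceptor markers overlapped, at 22440 to 28902 in single-housed heads, against 22126 to 25486 in group-housed heads. The part of these tissues in the Rab values was not tested.

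No tested Rab probe set passed the threshold for a difference between single-housed and group-housed heads. After the filter, which removed the 30% of probe sets with the lowest means, 21 Rab probe sets for 20 genes were tested. Of these, 0 passed limma's adjusted p of 0.05, against 0.0152% of all 13138 probe sets tested. At an unadjusted p of 0.05 the count was also 0 of 21, where 8.24% of all probe sets reached it. The adjusted p ran from 0.696 for Rab23 to 0.999 for RabX6. Only the dimmer Rab26 probe set had groups that did not overlap, 1 of 21, where 14.2% of all probe sets did so.

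The differences were also small with narrow intervals. They ran from -0.31 for Rab23 to 0.16 for Rab21, with SEs from 0.076 to 0.218. The 95% interval lay inside a 1.5-fold change in either direction for 20 of the 21 Rab probe sets, and for 75.0% of all probe sets tested. It lay inside a 1.3-fold change for 15 of 21, against 39.5% of all. The probe set outside the 1.5-fold range was that of Rab23, and RabX5 ended at its edge, with an upper bound of 0.58. These intervals are per probe set, without allowance for the number of probe sets, and they understate the fold of dim ones because of the added intensity. The tested Rab probe sets had means at percentiles 48.6 to 97.0 of all probe sets before the filter. The fit lets the error vary with intensity, and no comparison was made with probe sets of like brightness.

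**Figure D1:**
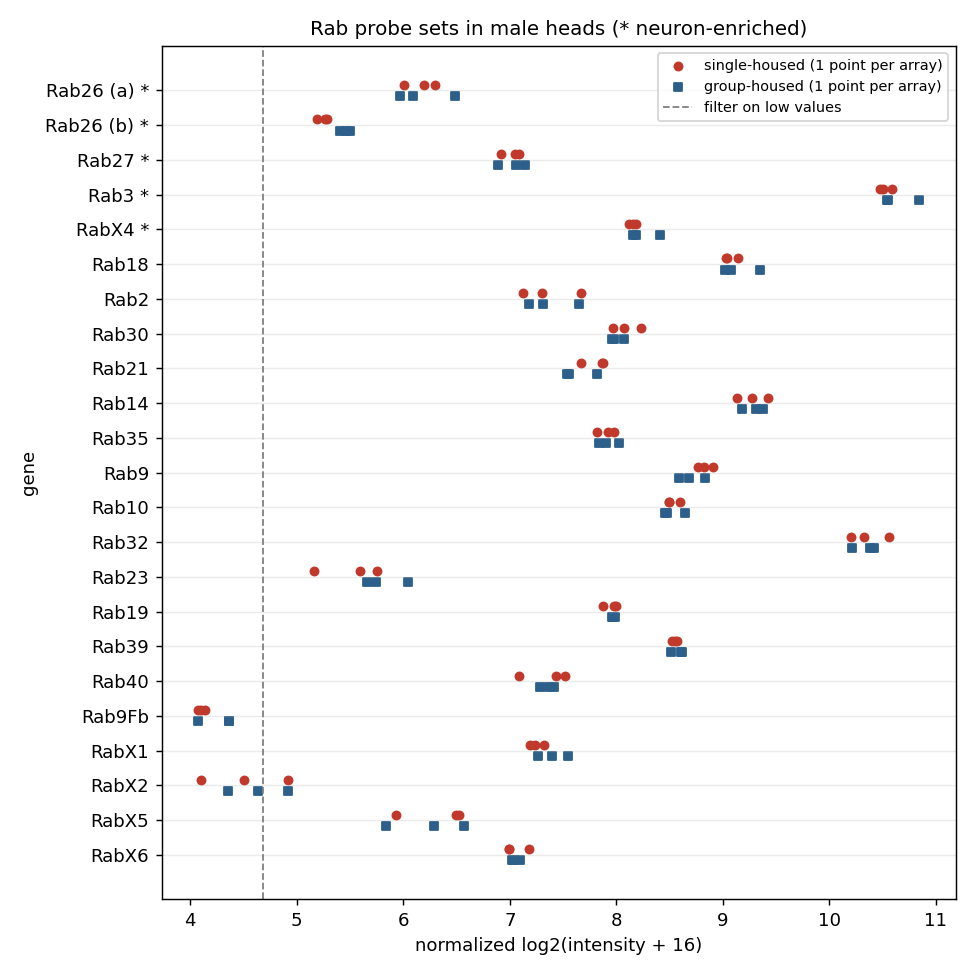
Normalized log2(intensity + 16) of the 23 Rab probe sets on each array, with single-housed heads as circles above group-housed heads as squares, by gene. Rab26 (a) is the brighter and Rab26 (b) the dimmer probe set; the groups overlap for every tested probe set except Rab26 (b), and Rab9Fb and RabX2 have means below the filter on low values at 4.69.

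Among the neuron-enriched Rabs, Rab3 is the classic Rab of synaptic vesicles. In Drosophila it is needed for the even distribution of the active zone protein Bruchpilot over release sites. Its deposited intensity was 1667, 1578 and 1413 in single-housed heads, against 1458, 1288 and 1748 in group-housed heads. The lowest and the highest of the 6 values were both group-housed. After normalization Rab3 stood at 10.52 ± 0.057 in single-housed heads, against 10.65 ± 0.172 in group-housed heads (SD, n = 3). The difference was -0.12 (SE 0.092, adjusted p 0.755), a ratio of 0.917 with a 95% interval of 0.793 to 1.06. The group-housed mean rested on replicate 3, at 10.84, while replicates 1 and 2, at 10.54 and 10.55, lay among the single-housed values of 10.50, 10.48 and 10.59. Without that array the difference was -0.03.

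RabX4 has no close mammalian counterpart by name, and its function is little described. Its intensity was 309, 298 and 241 in single-housed heads, against 274, 232 and 323 in group-housed heads. It repeated the layout of Rab3: group-housed replicate 3 was highest at 8.41 on the normalized scale, and the other 5 arrays lay between 8.12 and 8.19. The difference was -0.10 (SE 0.094, adjusted p 0.817), and -0.02 without group-housed replicate 3.

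Rab27 acts in mammals in the docking of secretory vesicles and granules. It had intensities of 136, 126 and 98 in single-housed heads and 101, 109.6 and 119 in group-housed heads. The groups overlapped over nearly their whole range. The normalized difference was -0.01 (SE 0.105, adjusted p 0.986), with a ratio of 0.991 and an interval of 0.84 to 1.17.

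Rab26 is linked in mammals to secretory granules and to the clearance of synaptic vesicles by autophagy. Its brighter probe set read 64.3, 50.5 and 60.3 in single-housed heads and 50.9, 63.2 and 49.4 in group-housed heads. That probe set differed by -0.02 (SE 0.155, adjusted p 0.987). Its dimmer probe set read 24.6, 22.5 and 22.5 in single-housed heads and 26.6, 21.9 and 31.4 in group-housed heads, which overlap as deposited.

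After normalization the dimmer Rab26 probe set stood at 5.28, 5.27 and 5.19 in single-housed heads, against 5.46, 5.40 and 5.50 in group-housed heads. Here every single-housed array lay below every group-housed array. The difference was -0.21 (SE 0.128), with a limma adjusted p of 0.705 and an exact 2-sided permutation p of 0.1, the smallest that 3 arrays against 3 allow. The probe sets of Rab26 thus gave differences of -0.02 and -0.21, and the SE of either covers much of that gap. Both intervals, -0.37 to 0.33 and -0.50 to 0.08, contain the other's estimate.

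**Figure D2:**
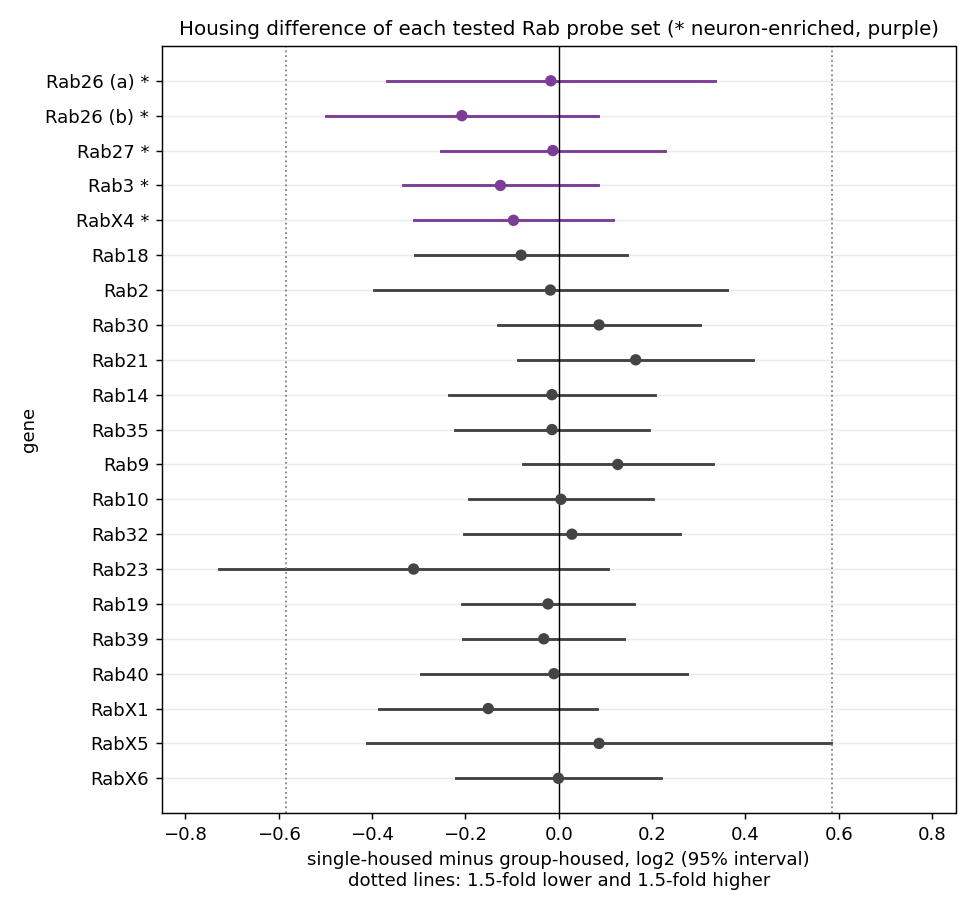
Difference between single-housed and group-housed heads for the 21 tested Rab probe sets, as log2 with the 95% interval of the limma fit (n = 3 arrays per group), with neuron-enriched Rabs in purple and dotted lines at 1.5-fold. All intervals include 0, and only that of Rab23 crosses a dotted line.

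The general Rabs are taken by the compartment on which they are known to act. At the endoplasmic reticulum and Golgi, Rab2 and Rab30 are Golgi Rabs and Rab18 is linked in mammals to the endoplasmic reticulum and lipid droplets. Rab18 read 637, 566 and 469 in single-housed heads and 637, 436 and 520.4 in group-housed heads, with a difference of -0.08 (SE 0.099). Rab2 read 140.2, 152 and 174 in single-housed heads, against 141, 112 and 186 in group-housed heads (difference -0.02, SE 0.166). Its arrays spread widely within each group, with normalized SDs of 0.279 in single-housed heads, against 0.241 in group-housed heads, so its interval of -0.40 to 0.36 is among the wider ones. Rab30 read 328, 275 and 216 in single-housed heads and 252, 205 and 236 in group-housed heads (difference 0.09, SE 0.095). That estimate was 0.015 without single-housed replicate 1, the highest array as deposited, and 0.21 with the deposited scaling.

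On endosomes, Rab21 is an early endosome Rab that handles integrins in mammalian cells. It had the largest positive estimate of the family. Its intensity was 214, 237 and 204 in single-housed heads, against 167, 149 and 210.1 in group-housed heads. The difference was 0.16 (SE 0.111, adjusted p 0.725), a ratio of 1.12 with an interval of 0.941 to 1.34. On the normalized scale single-housed replicates 2 and 3, at 7.87 and 7.88, lay over all group-housed values of 7.53, 7.56 and 7.82, and replicate 1 did not, at 7.66. Without group-housed replicate 3 the difference was 0.26, with an unadjusted limma p of 0.0374 and an adjusted p of 0.726.

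Rab14 acts between Golgi and endosomes and in the maturation of phagosomes in fly hemocytes, and Rab35 acts in recycling to the plasma membrane. Rab14 read 778, 673 and 499 in single-housed heads, against 619.7, 488 and 633 in group-housed heads. Rab35 read 241, 246 and 217 in single-housed heads, against 210.4, 193 and 247 in group-housed heads. Both differed by -0.01 after normalization, with SEs of 0.097 and 0.091, and their groups overlapped.

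Rab9 returns receptors from late endosomes to the Golgi. As deposited it read 479, 509 and 403 in single-housed heads, all above the 369, 379 and 393 of group-housed heads. After normalization the groups overlapped, with 8.76, 8.91 and 8.82 in single-housed heads, against 8.59, 8.83 and 8.68 in group-housed heads. The difference was 0.13 (SE 0.089, adjusted p 0.743), and 0.27 with the deposited scaling (adjusted p 0.730).

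Rab10 directs polarized secretion, in flies of basement membrane proteins from epithelia. It read 427, 376 and 318 in single-housed heads and 335, 297 and 380.3 in group-housed heads. Its normalized means were 8.53 ± 0.061 in single-housed heads, against 8.52 ± 0.103 in group-housed heads (SD, n = 3), with an interval of -0.19 to 0.20.

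Rab32, the product of the eye color gene lightoid, acts in the making of eye pigment granules. It read 1729, 1429 and 1075 in single-housed heads and 1354, 1146 and 1120.1 in group-housed heads. Single-housed replicate 1 was highest and replicate 3 was lowest of all 6 arrays, so the single-housed range enclosed the group-housed range. The difference was 0.03 (SE 0.102, adjusted p 0.964).

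Rab23 is known in flies for planar polarity of the wing and in mammals for Hedgehog signalling. It had the largest difference of the family in size and the smallest p. Its intensity was 35.7, 19.3 and 38.1 in single-housed heads, against 49.0, 31.7 and 36.8 in group-housed heads. The normalized difference was -0.31 (SE 0.183, adjusted p 0.696), a ratio of 0.806 with an interval of 0.604 to 1.08. The groups overlapped, and single-housed replicate 2, at 5.16, set much of the estimate. Without it the difference was -0.14, and without group-housed replicate 1 it was -0.20.

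The other Rabs are less described. Rab40 carries a SOCS box, as in parts of ubiquitin ligases. It read 191, 170.2 and 112 in single-housed heads and 138, 133 and 150.4 in group-housed heads (difference -0.01, SE 0.125). RabX1 read 148, 145 and 136 in single-housed heads, against 169, 119 and 154 in group-housed heads. On the normalized scale its single-housed arrays ran from 7.19 to 7.32 and its group-housed arrays from 7.26 to 7.55, a difference of -0.15 (SE 0.103, adjusted p 0.731).

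Rab19 and Rab39 were the steadiest members. Their residual SDs were 0.0457 and 0.0427, against a median of 0.112 over the Rab probe sets and 0.156 over all probe sets tested. Those medians are not matched for brightness. Rab39 read 419, 385 and 332 in single-housed heads and 375, 324 and 347 in group-housed heads, and its difference of -0.03 had an interval of -0.20 to 0.14. Rab19 differed by -0.02, with an interval of -0.21 to 0.16. RabX6 differed by -0.00 (SE 0.096).

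RabX5 varied most, with a residual SD of 0.354. It read 86.5, 78.1 and 44.3 in single-housed heads and 78.2, 53.3 and 42.9 in group-housed heads. Replicate 3 was the lowest in both groups, and the difference was 0.09 (SE 0.218).

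Rab9Fb and RabX2 lay below the filter and were not tested. Rab9Fb read 1.53, 0.77 and 1.42 in single-housed heads, against 3.82, 3.09 and 1.00 in group-housed heads. RabX2 read 1.08, 5.89 and 16.4 in single-housed heads and 8.04, 2.92 and 16.8 in group-housed heads. At this brightness the intensity added before taking logs is about as large as the readings or larger, and no difference could be measured.

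Set against the general Rabs, the neuron-enriched Rabs lay slightly lower in single-housed heads, by less than the arrays spread. With 1 probe set per gene, the one with the highest mean, the 4 neuron-enriched genes had a median difference of -0.06, and all 4 estimates were below 0, while with the deposited scaling their median was 0.068. The median was -0.021 without group-housed replicate 3, -0.019 with median centring and -0.10 when the 2 probe sets of Rab26 were averaged. The 16 general genes tested had a median of -0.01, with 10 below 0 and 6 above. Over all probe sets tested the median was -0.02, and 54.6% lay below 0. The median of the neuron-enriched genes on each array, as a deviation from each gene's mean, was -0.01, -0.06 and -0.04 on the single-housed arrays and -0.06, 0.04 and 0.12 on the group-housed arrays. The groups overlapped, and group-housed replicate 3 stood highest. The median of the general Rabs, over 16 genes rather than 4, stayed between -0.03 and 0.03 on all 6 arrays. The gap between the neuron-enriched and general medians was -0.03 ± 0.013 in single-housed heads, against 0.03 ± 0.104 in group-housed heads (SD, n = 3). No test was made over the members, which were grouped with earlier results of these data known.

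Markers of neurons were also highest on group-housed replicate 3. Their list median was -0.08, -0.10 and 0.04 on the single-housed arrays and -0.04, 0.03 and 0.23 on the group-housed arrays. Of 11 neuron markers measured, 9 lay below 0 in single-housed heads with a median difference of -0.08 after normalization, and 0 passed the adjusted threshold. At an unadjusted limma p of 0.05 there was 1, Syn, lower at -0.26, where 3.67% of all probe sets were lower. The summed deposited intensity of the 11 markers ran from 9851 to 11504 in single-housed heads, against from 8840.4 to 11964 in group-housed heads. The part of the neuron markers in the Rab values was not tested. Markers of head fat body had their lowest list median on group-housed replicate 3, at -0.56. It was -0.23 and 0.06 on the other group-housed arrays and 0.21, 0.41 and 0.37 on the single-housed arrays. Gut markers were instead lowest on group-housed replicate 2, at -2.44. The part of these tissues in the neuron marker values was not tested. In whole heads, the number of neurons, the transcript per neuron and the share of other tissue cannot be told apart.

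**Figure D3:**
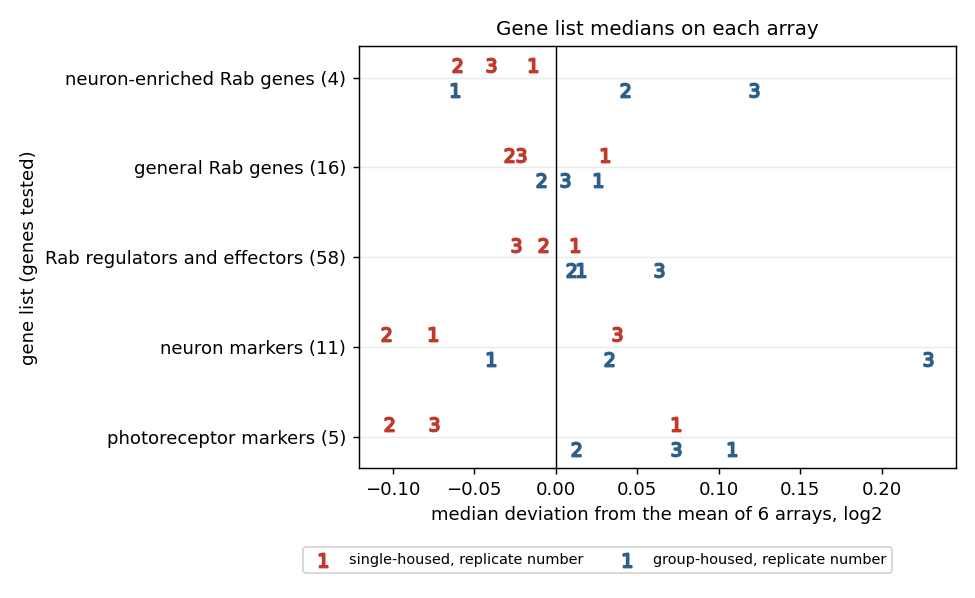
Median deviation of each gene list from the mean of the 6 arrays, in log2, by array, with the replicate number as the symbol, single-housed in red above group-housed in blue. Neuron-enriched Rabs and neuron markers are both highest on group-housed replicate 3, at 0.12 and 0.23. That array held the highest normalized reading for 24.1% of all probe sets tested. The median of the general Rabs, over 16 genes rather than 4, stays between -0.03 and 0.03.

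The sign of many Rab estimates changed with the scaling of the arrays or with an array left out. As deposited, single-housed replicate 1 held the highest reading for 12 of the 21 tested Rab probe sets and for 37.3% of all probe sets tested. After normalization it did so for 6 of 21 and for 14.1% of all. With the deposited scaling 18 of the 20 tested Rab genes lay above 0, against 6 after normalization, while the median over all probe sets was 0.10 against -0.02. Relative to those medians, the Rab genes stood close to the array as a whole in either scaling, with list medians of 0.11 as deposited and -0.01 after normalization. Median centring put 14 of the 21 tested Rab probe sets above 0.

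The proteins that switch and read Rabs were followed through a list of regulators and effectors, of which 58 genes were measured and all were tested. In this list 38 genes lay below 0 and 20 above after normalization, with a median of -0.05, or 0.084 with the deposited scaling. At the adjusted threshold 0 passed, and 3 reached an unadjusted limma p of 0.05. Of these 1 was higher and 2 were lower in single-housed heads, where 4.57% of all probe sets were higher and 3.67% lower at that p. The groups did not overlap for 6 of 58, with the single-housed arrays above in 2 and below in 4, against 6.23% above and 7.95% below over all probe sets.

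The smallest p belonged to Rab3-GEF, the exchange factor for Rab3, which is also known to act on Rab27 in mammals. It read 599.9, 544 and 572 in single-housed heads, against 648, 556 and 685 in group-housed heads. After normalization all single-housed arrays, at 9.06, 9.0 and 9.30, lay below all group-housed arrays, at 9.38, 9.37 and 9.47. The difference was -0.29 (SE 0.094, adjusted p 0.499), a 1.22-fold lower value in single-housed heads that did not pass the threshold. The deposited readings overlapped, and with the deposited scaling the difference was -0.13 (adjusted p 0.921).

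Rab3GAP1, the catalytic subunit of the GAP for Rab3, had intensities of 83.5, 95.8 and 61.7 in single-housed heads, against 79.0, 80.6 and 115 in group-housed heads. Its difference was -0.27 (SE 0.147, adjusted p 0.674), with overlapping groups. The other subunit, Rab3-GAP, differed by -0.00 (SE 0.098). Of the Rab3 effectors, the active zone protein gene Rim was at -0.16 (SE 0.126) and the rabphilin gene Rph at 0.09 (SE 0.105). These Rab3 partners were brought together after their values were seen, with 4 of 5 below 0, where 54.6% of all probe sets tested were. Rab3 itself was at -0.12, and at 0.059 with the deposited scaling. Rim also had its highest value, 8.81, on group-housed replicate 3.

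**Figure D4:**
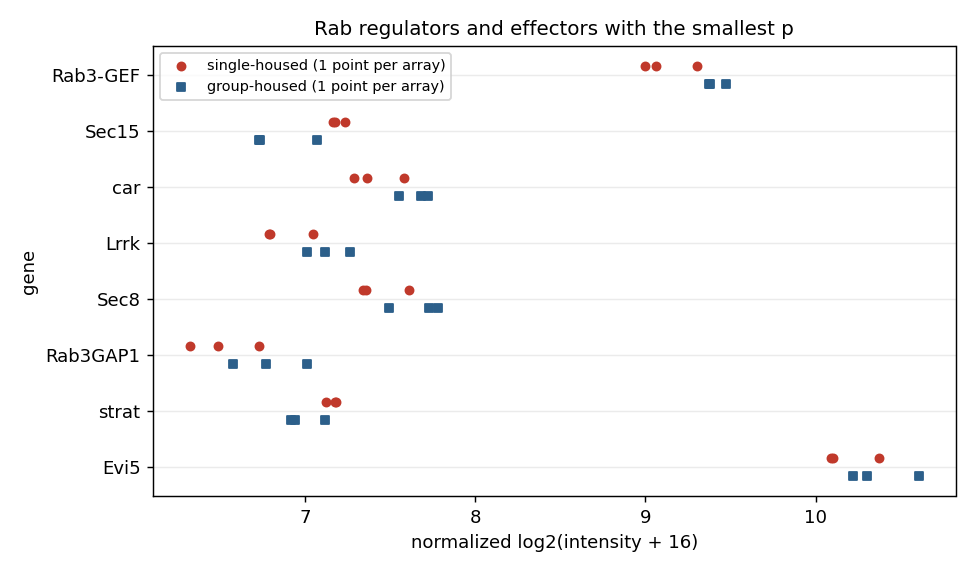
Normalized log2(intensity + 16) of the 8 Rab regulators and effectors with the smallest p, on each array, with single-housed heads as circles above group-housed heads as squares. The groups are apart for Rab3-GEF, Sec15 and strat and overlap for the other 5 genes; adjusted p ran from 0.499 to 0.711.

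Sec15 is a subunit of the exocyst, the complex that tethers vesicles to the plasma membrane, and binds Rab11 in flies. It read 154, 138 and 120.0 in single-housed heads, against 89.5, 78.4 and 121 in group-housed heads. On the normalized scale its single-housed arrays ran from 7.17 to 7.24 and its group-housed arrays from 6.73 to 7.07. The difference was 0.35 (SE 0.116, adjusted p 0.499). Sec8, of the same complex, was at -0.23 (SE 0.116), and the 7 exocyst genes measured had 4 above and 3 below 0, with a median of 0.03.

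The carnation gene car encodes a subunit of the HOPS complex, which fuses late endosomes with lysosomes. It was at -0.24 (SE 0.106, adjusted p 0.605), and the 6 HOPS genes measured had a median of -0.06. Lrrk, whose mammalian relative phosphorylates Rab proteins, was at -0.25 (SE 0.114, adjusted p 0.615). The Rab8 regulator gene strat was at 0.17 (SE 0.096), with group-housed arrays of 7.12, 6.95 and 6.92 below single-housed arrays of 7.13, 7.18 and 7.18.

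Evi5 encodes a GAP for Rab11 in flies. Its brightest probe set was at -0.19 (SE 0.118, adjusted p 0.711), and its others were at -0.17, -0.04 and 0.01. The brightest was at -0.098 with median centring, -0.011 with the deposited scaling and -0.070 without group-housed replicate 3. The genes for the shared machinery of lipid attachment and recycling lay a little above 0: Gdi at 0.11 (SE 0.077), Rep at 0.15 (SE 0.146) and RabGGTa at 0.03 (SE 0.132). Gdi, the GDP dissociation inhibitor that all Rabs share, read 795, 769 and 649 in single-housed heads, against 600.2, 605 and 617 in group-housed heads. Those deposited readings do not overlap, while the normalized ones of 9.46, 9.46 and 9.49 in single-housed heads, against 9.28, 9.47 and 9.34 in group-housed heads do.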

How the data were processed

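Male fly heads were profiled on 1-colour Affymetrix arrays, per the labels' protocols. The authors deposited 1 linear signal intensity per probe set and array; how they summarised, background-corrected or scaled it is not given in the sources used here. The table held 18952 probe sets. After 183 controls were left out, 18769 remained, of which 13647 had 1 annotated gene, 402 several and 4720 none. Of the 13647, 13544 matched the gene table by ID, and 0 symbols needed updating.

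Values were taken as log2(intensity + 16), quantile normalized, and filtered of the 30% lowest means, leaving 13138 probe sets. The housing groups were set against each other in R 4.3.3 by limma 3.58.1, with a 2-sided moderated test, an intensity trend in eBayes and Benjamini-Hochberg adjustment over all probe sets tested. The fit was tested on simulated data. Groups and replicate numbers came from the sample titles, and a comparison of columns found 0 duplicated arrays. An intensity has no count behind it, so precision is limited by 3 arrays per group, and an exact permutation test cannot go below 0.1. The 6 arrays correlated at 0.977 to 0.989 over probe sets, a description only.

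Every Rab gene may be named. Among regulators, the 8 smallest p are named, together with the Rab3 partners and the genes of the prenylation and recycling machinery, which were picked after their values were seen. A gene entered a list through its brightest probe set. Members, lists and tests were chosen with earlier results of these data known. The alternatives tried were values with no scaling or centred on the array median, another pseudocount (1 or 64), another filter (none or 50%), eBayes without the trend, a block for the replicate number, leaving out single arrays and, for the Rab list medians only, averaging the probe sets of a gene.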

Additional observations from a re-analysis of the deposited data

How the results depend on the processing

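No Rab probe set and none of the 8 named regulators passed the adjusted threshold under any of the 14 alternatives; over these the limma adjusted p of the Rab probe sets ran from 0.534 to 1.00. The count of Rab probe sets at unadjusted p 0.05, 0 otherwise, was 1 without the intensity trend (the dimmer Rab26 probe set) and 0 to 1 with an array left out (Rab21 without group-housed replicate 3). The count with intervals inside 1.5-fold, an alternative set chosen after seeing the data, was 17 to 21. Over all probe sets, calls numbered 78 with the deposited scaling, 11 with median centring, 1 with a pseudocount of 64, without a filter or with the filter at 50%, 0 without the trend (985 at unadjusted p 0.05), and 0 to 47 with an array left out; the count at unadjusted p 0.05 then ran from 605 to 1351. The cause was not tested.

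With the deposited scaling the list medians were 0.11 for all Rabs, 0.068 for neuron-enriched Rabs, 0.12 for general Rabs and 0.084 for regulators. With median centring they were 0.024 for all Rabs, -0.019 for neuron-enriched Rabs, 0.034 for general Rabs and -0.0027 for regulators. With an array left out they ran from -0.046 to -0.0061 for all Rabs, -0.11 to -0.021 for neuron-enriched Rabs (highest without group-housed replicate 3), -0.043 to 0.026 for general Rabs and -0.073 to -0.025 for regulators. Averaging the probe sets of a gene, tried for the Rab medians only, put the neuron-enriched median at -0.10. With the deposited scaling Rab3GAP1 was at -0.16, Lrrk at -0.14, car and Sec8 at -0.11, strat at 0.29, Rab21 at 0.30 and RabX1 at -0.027. All estimates that changed sign lay between -0.12 and 0.09 in the reported fit. With the deposited scaling they were Rab26 (brighter) 0.078, Rab27 0.10, Rab3 0.059, RabX4 0.037, Rab18 0.073, Rab2 0.096, Rab19 0.10, Rab39 0.11, Rab40 0.12, RabX6 0.12, Rab14 0.15 and Rab35 0.11. With median centring they were Rab27 0.016, Rab2 0.0091, Rab19 0.017, Rab39 0.025, Rab40 0.037, RabX6 0.032, Rab14 0.059 and Rab35 0.023. With a pseudocount of 64 RabX6 was at 3.9e-07. With an array left out the ranges were Rab2 -0.17 to 0.12, RabX5 -0.11 to 0.28, Rab32 -0.067 to 0.11, Rab10 -0.030 to 0.065, Rab35 -0.055 to 0.037, Rab26 (brighter) -0.12 to 0.13, Rab19 -0.043 to 0.013, RabX6 -0.065 to 0.032, Rab27 -0.083 to 0.044, Rab40 -0.095 to 0.12, Rab14 -0.089 to 0.059 and Rab18 -0.15 to 0.019.

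With the replicate number as a block, 32 probe sets passed, 0 of them Rabs, and the neuron-enriched median stayed at -0.06. Deviations of same-numbered arrays correlated with r of 0.03, 0.11 and 0.33, and those of differently numbered arrays with r from -0.25 to 0.16. Of the 3 single-housed arrays only replicate 3 correlated best with its own number. With 3 arrays per group these values cannot decide whether same-numbered samples were paired, and the titles give only a shared number.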
